A study of Mus musculus with 25 samples.

Results

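Remote intergenic peaks were the accessible intervals that lay farthest from protein-coding genes. An interval counted as remote when it was on chromosomes 1 to 19 or X, its midpoint lay in no protein-coding gene body, and that midpoint was over 100000 bp from the nearest protein-coding transcription start site (TSS) in GENCODE vM39 on the mouse genome build GRCm39. The rule used position only, not read counts, and it took 476 of the 13527 peaks (3.52%). The member nearest to the limit lay 100711 bp from a TSS, and the nearest excluded intergenic peak lay at 99597 bp.

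The peaks come from ATAC-seq, in which a transposase cuts open chromatin and marks the cuts for sequencing, in 25 libraries of CD8+ T cells specific for a shared fetal and graft antigen (T_FGS). All were C57BL/6 females, a library held cells pooled from the spleen and lymph nodes of an individual mouse, and the T_FGS were sorted with a tetramer of an OVA peptide on Kb. The males and the skin donors were 2W-OVA.BALB/c mice, which express the transgenic protein 2W-OVA constitutively, so that the graft and the fetus present OVA. The females were obtained at an age of 8 to 12 weeks. Naive mice (3 libraries) had neither a graft nor a mating, and Sensitized mice (4 libraries) had rejected a 2W-OVA.BALB/c skin graft. N+P mice were naive and S+P mice were sensitized before a semi-allogeneic pregnancy, and both were sorted after delivery. N+P C1 (3 libraries) and S+P C4 (4 libraries) were PD1-negative cells. N+P C5 (3 libraries) and S+P C5 (4 libraries) were positive for PD1, a receptor of activated and hypofunctional T cells, and for CD73, an enzyme that makes adenosine. S+P C7 (4 libraries) was PD1-positive and CD73-negative. The subsets of the pregnant groups were thus defined by sorting gates, whereas the labels of the Naive and Sensitized libraries name no gate on PD1 or CD73.

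Accessible intervals far from genes are mostly enhancers, silencers and boundary elements. Enhancers bind transcription factors and reach their target promoters through loops in the chromatin, so that the nearest gene on the chromosome need not be the gene controlled. In CD8+ T cells, distal intervals change with the state of the cell more than promoters do, and factors of the RUNX, ETS, AP-1, NFAT, T-box and TCF/LEF families bind many of them. In what follows each member is named by its nearest protein-coding gene only to place it on the map, which does not show that it acts on that gene.

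Library totals ran from 2430890 to 25419715 counts in peaks (median 8197552), and the median count of a remote peak ran from 99 to 1118 between libraries. At most 24 of the 476 members had under 10 counts in any library. Promoters of the CD8+ T cell genes Cd8a, Cd3e, Cd3g and Lck held peaks with counts in every library, those of Cd8b1 and Cd2 held none, and none of the 12 marker genes of CD4+ T cells, B cells, myeloid cells and NK cells had a promoter peak. The libraries of a group did not always lie together over the remote peaks. Sensitized replicates 3 and 4 were nearer to the mean of N+P C5 (Pearson's r across members 0.953 and 0.936) than to that of their own group (0.869 and 0.906), and S+P C4 replicate 1, the shallowest library, was also nearer to N+P C5 (0.844) than to the other S+P C4 libraries (0.754). The group mean nearest to Sensitized replicate 1 was that of S+P C4 (0.874, against 0.815 for its own group), and the one nearest to Naive replicate 3 was that of N+P C1 (0.985, against 0.969). For comparisons with the Sensitized group, the counts and the members with the smallest p are therefore also given without replicates 3 and 4. In bulk libraries, fewer cells with an open interval and less opening per cell cannot be told apart.

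The sequences of 8 members are shown because the comparisons turn on them. Those near Cd47 and Cox7c opened in Sensitized vs. Naive, without pregnancy. Those near Fasl and Eomes opened in S+P C5, and those near Satb1, Tgfbr2, B3gnt2 and Ifng closed. Each line holds the central 300 bases of the peak on the forward strand of GRCm39, 5′ to 3′, and capitals mark a match to one of 7 short motifs on either strand.
Cd47 peak, chr16:49756760-49757059: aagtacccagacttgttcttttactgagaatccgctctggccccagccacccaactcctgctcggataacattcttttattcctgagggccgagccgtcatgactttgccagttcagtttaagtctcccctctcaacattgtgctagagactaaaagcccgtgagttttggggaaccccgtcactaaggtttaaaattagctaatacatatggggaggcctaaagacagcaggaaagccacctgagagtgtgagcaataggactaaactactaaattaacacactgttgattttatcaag
Cox7c peak, chr13:85872622-85872921: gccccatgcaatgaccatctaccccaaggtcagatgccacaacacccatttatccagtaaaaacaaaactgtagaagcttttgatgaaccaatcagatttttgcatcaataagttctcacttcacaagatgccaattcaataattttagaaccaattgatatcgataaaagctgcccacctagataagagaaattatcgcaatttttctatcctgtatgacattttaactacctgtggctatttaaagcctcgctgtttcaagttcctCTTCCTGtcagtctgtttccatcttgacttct
Fasl peak, chr1:161514757-161515056: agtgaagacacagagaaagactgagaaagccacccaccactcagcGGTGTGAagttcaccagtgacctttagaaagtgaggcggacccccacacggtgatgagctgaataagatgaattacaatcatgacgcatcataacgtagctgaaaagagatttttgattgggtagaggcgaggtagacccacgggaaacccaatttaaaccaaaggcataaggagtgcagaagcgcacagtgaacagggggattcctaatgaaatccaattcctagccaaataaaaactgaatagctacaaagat
Eomes peak, chr9:118146545-118146844: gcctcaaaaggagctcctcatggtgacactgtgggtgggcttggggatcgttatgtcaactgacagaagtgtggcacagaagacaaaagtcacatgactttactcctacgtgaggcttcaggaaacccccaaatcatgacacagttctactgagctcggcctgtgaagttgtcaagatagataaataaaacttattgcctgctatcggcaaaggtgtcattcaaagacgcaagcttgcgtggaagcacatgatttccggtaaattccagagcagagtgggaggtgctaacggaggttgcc
Satb1 peak, chr17:52475514-52475813: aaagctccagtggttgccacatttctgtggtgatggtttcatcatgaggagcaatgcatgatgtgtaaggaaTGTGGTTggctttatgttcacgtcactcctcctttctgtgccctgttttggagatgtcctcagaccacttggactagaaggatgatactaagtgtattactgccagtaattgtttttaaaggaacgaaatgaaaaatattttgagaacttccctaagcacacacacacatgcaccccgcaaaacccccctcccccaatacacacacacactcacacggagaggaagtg
Tgfbr2 peak, chr9:116198172-116198471: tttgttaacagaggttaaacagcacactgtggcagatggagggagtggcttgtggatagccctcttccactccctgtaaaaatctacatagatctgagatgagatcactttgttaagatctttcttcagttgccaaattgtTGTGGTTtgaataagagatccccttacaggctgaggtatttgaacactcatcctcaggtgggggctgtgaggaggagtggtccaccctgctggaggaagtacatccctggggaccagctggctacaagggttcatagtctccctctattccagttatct
B3gnt2 peak, chr11:22642983-22643282: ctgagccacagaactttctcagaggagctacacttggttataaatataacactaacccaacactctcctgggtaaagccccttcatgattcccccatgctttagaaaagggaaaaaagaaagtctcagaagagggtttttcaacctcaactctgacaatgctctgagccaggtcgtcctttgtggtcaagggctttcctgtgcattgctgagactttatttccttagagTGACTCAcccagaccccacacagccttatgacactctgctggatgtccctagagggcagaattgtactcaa
Ifng peak, chr10:118469501-118469800: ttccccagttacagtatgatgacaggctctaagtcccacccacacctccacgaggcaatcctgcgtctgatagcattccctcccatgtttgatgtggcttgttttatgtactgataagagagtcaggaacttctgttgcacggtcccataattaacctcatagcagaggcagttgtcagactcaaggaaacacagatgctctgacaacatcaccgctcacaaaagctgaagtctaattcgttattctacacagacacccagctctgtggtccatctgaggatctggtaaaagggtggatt

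The motifs searched were TGANTCA (AP-1), TGTGGTT (RUNX), CAGGAAG (ETS), CTTTGAT (TCF/LEF), GGTGTGA (T-box), TGGAAAA (NFAT) and GGGCGGG (SP/KLF), each read on both strands, plus the degenerate CTCF motif by name. No motif contains another. The Cox7c window held an ETS match, the Fasl window a T-box match, the Satb1 and Tgfbr2 windows a RUNX match each, and the B3gnt2 window an AP-1 match. The windows near Cd47, Eomes and Ifng held none of these strings, which says only that these letters are absent from these bases.

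The 476 members were spread over all 20 chromosomes and had 258 different nearest genes. Their median distance to a TSS was 179118 bp, and the farthest, near Lrrc4c, lay at 2348615 bp. Between 100000 and 200000 bp there were 284 members, between 200000 and 500000 bp 170, and beyond 500000 bp 22. Although no protein-coding gene covered them, 302 members (63.4%) lay inside an annotated long non-coding RNA (lncRNA), of which 231 were hit, and 95 lay within 1000 bp of a lncRNA start. Among lncRNAs with a gene name that is not provisional, those with most members were Firre with 10, an X-linked RNA built of repeats, Morrbid with 8, which lies beside the gene of the death factor Bim, and Lncpint with 7. Pvt1, next to Myc, and Dxz4, another X-linked repeat locus, held 3 each.

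In base composition the members were like other distal peaks and unlike promoters. Their median GC content was 46.4%, against 48.0% for peaks in gene bodies, 48.7% for intergenic peaks within 100000 bp and 59.3% for promoter peaks, and the observed-to-expected ratio of CpG was 0.243 at the median, against 0.742 in promoter peaks. Median length was 825 bp. Each group of libraries has its own list of reproducible peaks, and 53 remote peaks (11.1%) were in all 7 lists, against 3245 (24.0%) of all peaks. A total of 120 members (25.2%) were in a single list, 59 of them in that of S+P C5. The S+P C4 list held the fewest members, 77, and the S+P C5 list the most, 326. The lists also differed in size over all peaks, from 3657 in S+P C4 to 11213 in S+P C5. The order was not the same throughout, since the S+P C7 list had 8652 peaks but 213 members, and the N+P C5 list 8412 peaks and 254 members.

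Of the searched motifs, AP-1 was found in 94 members (19.7%) against 9.20% of all peaks, RUNX in 112 (23.5%) against 10.8%, ETS in 135 (28.4%) against 19.0%, and NFAT in 51 (10.7%) against 4.87%. TCF/LEF was found in 32 (6.72%) against 4.07%, and T-box also in 32 (6.72%) against 5.12%. SP/KLF, a motif of GC-rich promoters, was found in 33 (6.93%) against 29.3%. The CTCF motif was found in 2 members (0.42%), against 0.57% of all peaks and 1.52% of intergenic peaks within 100000 bp. All shares are over the central 300 bases of each peak, so that peak length does not enter, but promoter peaks, which were 56.7% of all peaks, are richer in GC. Peaks in gene bodies, with a median GC content near that of the members, held AP-1 in 15.6%, RUNX in 20.6%, ETS in 28.4% and NFAT in 6.75%.

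Some members also shared long stretches of sequence with each other. Within the central 300 bases, a run of at least 31 identical bases joined 44 members (9.24%) to another member, and a further 12 shared one only with peaks that are no members. Joined within their own class were 6.12% of intergenic peaks within 100000 bp, 3.97% of gene-body peaks and 2.06% of promoter peaks. Classes differ in size, and no test was made. The word below is shown because it is what members of the repeat locus Dxz4 have in common.
Dxz4 word, in 2 of its 3 members: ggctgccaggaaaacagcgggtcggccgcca

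This word was found in no peak elsewhere. The most common shared word, a run of CA repeats, was in 10 members and in 140 peaks in all. Reads from such repeats keep a unique position only where the copies differ, so counts there are less certain.

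The members took between 2.55% and 2.98% of the counts in Sensitized libraries and between 2.69% and 2.93% in Naive libraries, and the library that stood apart was S+P C4 replicate 1 with 4.22%. The other S+P C4 libraries had 2.57%, 2.63% and 2.81%. The member with most counts, which took 1.27% of the counts of that library and between 0.0765% and 0.314% of the others, lies at chr17:40153838-40159779, 104603 bp from Esp38, at the ribosomal RNA copy Rn18s-rs5. Its normalized counts (counts divided by the DESeq2 size factor) were 104737, 15652, 14813 and 13561 in S+P C4 libraries. Without that peak the members' share ran from 2.39% to 2.99% over the 25 libraries, with S+P C4 replicate 1 still highest. The second place with a high value in that library was a cluster of 4 peaks at chr2:98492535-98497718. It lies 2344438 to 2348615 bp from the nearest protein-coding TSS and holds the member farthest from one. Its summed normalized counts were 33455, 5365, 5747 and 2213 in S+P C4 libraries.

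**Figure D1:**
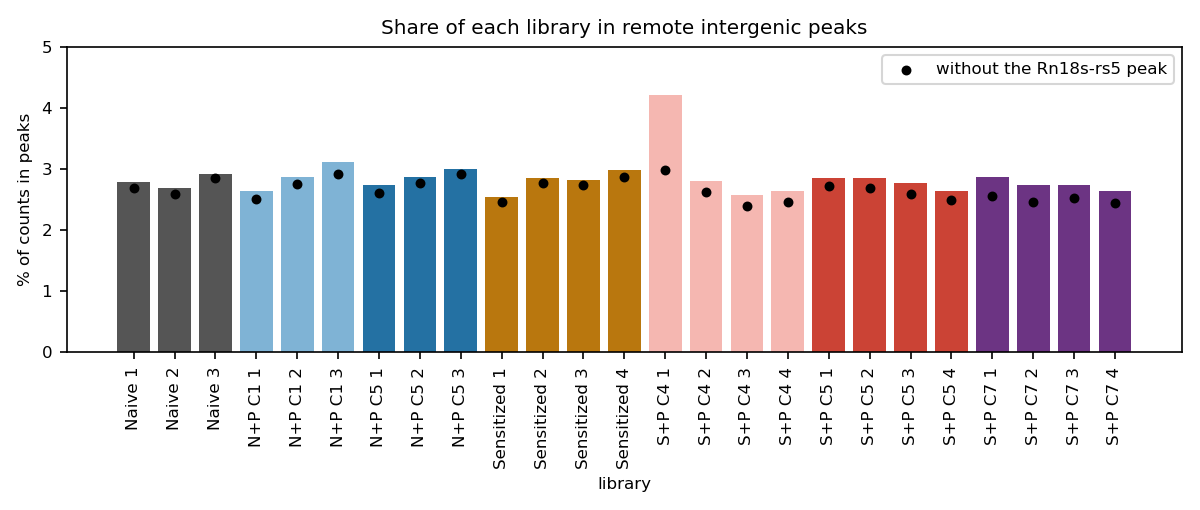
Percent of each library's counts in peaks that fell in the 476 remote peaks (bars, 1 per library, coloured by group) and the same without the peak at Rn18s-rs5 (black points). The libraries lie between 2.55% and 3.11% except S+P C4 replicate 1 at 4.22%, which has 2.99% without that peak.

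Comparisons between groups used the Wald test of DESeq2 on the raw counts of all 13527 peaks and 25 libraries. A peak was called opening or closing when its Benjamini-Hochberg adjusted p was under 0.1 and its log2 fold change exceeded 0.9 in size, the thresholds of the study's methods, and fold changes are given ± SE, which is also what the values in parentheses beside an adjusted p are. The p values rest on the spread between libraries, which was estimated for each peak over all 7 groups together. Subsets sorted from the same mice were not paired in this fit. The members' counts are set beside the percentage of all tested peaks that passed the same rule in the same direction. Members named for a small p were chosen among calls whose libraries do not overlap between the groups compared. Where such a member is described as without overlap, this follows from the choice and is no further support. How many calls met this condition is not given here. Of the 476 members, 251 (52.7%) were called in at least 1 of the 10 comparisons. The same share over all peaks was not counted, so the figure marks no trait of the members.

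Graft rejection without pregnancy was read from Sensitized vs. Naive. Here 74 members opened (15.5%, against 7.22% of all peaks) and 23 closed (4.83%, against 1.4%). The median log2 fold change of the members was 0.02, and of all peaks -0.01. Among peaks in gene bodies 16.6% opened, and among promoter peaks 1.00% did. With intensity-dependent (loess) offsets in place of size factors the split was 51 opening and 44 closing, and without Sensitized replicates 3 and 4 it was 94 and 79. The closing count moved most: it was 5 without Sensitized replicate 1, 8 without replicate 2, 41 without replicate 3 or without replicate 4, 10 and 12 without Naive replicates 1 and 2, and 55 with replicate numbers as a block, although Naive and Sensitized libraries with the same number come from different mice that nothing in the labels ties together.

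The peak that opened with the smallest p was near Cd47, the surface protein that tells phagocytes to spare a cell. It lies at chr16:49755903-49757917, 136014 bp from the TSS, inside the lncRNA Gm5486. Normalized counts were 55.1, 41.3 and 61.2 in Naive and 1157, 1390, 389 and 502 in Sensitized libraries. No Sensitized library overlapped a Naive library, which the choice of named members required, and replicates 3 and 4 were the lowest of their group. The log2 fold change was 4.03 ± 0.34, adjusted p = 5.02e-28. Among the sorted subsets of sensitized pregnant mice the mean was 812 ± 319 (SD, n = 4) in PD1-negative S+P C4, 1253 ± 223 in PD1+CD73+ S+P C5 and 1442 ± 168 in PD1+CD73- S+P C7. A neighbour at chr16:49789952-49791648 had 74.4, 70.8 and 78.9 in Naive and 1246, 1430, 384 and 515 in Sensitized libraries (log2 fold change 3.58 ± 0.40, adjusted p = 6.28e-17). Of 5 members near Cd47, 4 opened in this comparison, and the fifth, at chr16:49866095-49866794, did not pass (log2 fold change 0.01 ± 0.14, adjusted p = 0.982).

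Near Cox7c, which encodes a subunit of cytochrome c oxidase, the member at chr13:85872286-85873259 lay 322251 bp from the TSS. It had 53.7, 23.6 and 58.7 normalized counts in Naive libraries and 222, 386, 244 and 258 in Sensitized libraries, with no overlap (log2 fold change 2.60 ± 0.25, adjusted p = 3.04e-22). Other opening members whose groups did not overlap were near Tm2d1 at chr4:98169815-98171343 (2.99 ± 0.31, adjusted p = 7.36e-19) and near Nfe2l3, a stress-response transcription factor, at chr6:51036674-51037575 (2.34 ± 0.26, adjusted p = 1.31e-16). A member by Itga4, the alpha4 integrin of T cell adhesion, lay at chr2:78895678-78896026. It rose from 7.11 ± 3.47 (SD, n = 3) to 162 ± 116 (SD, n = 4), which is 4.59 ± 0.55 in log2 units (adjusted p = 1.61e-14). The member by Itgb1, the beta1 integrin, at chr8:129275766-129277064 rose from 65.6 ± 20.8 to 691 ± 393 (3.39 ± 0.50, adjusted p = 7.68e-10). Both integrin members were picked after their values were seen. With Sensitized replicates 3 and 4 left out, the log2 fold changes of the Cd47, Cox7c, Tm2d1 and Nfe2l3 members were 4.59, 2.73, 3.46 and 2.78, and all kept their call.

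The closing members with the smallest p were near Klf3, Ctnnb1, Gata3, Tnfaip3 and Satb1. By Klf3, a zinc-finger repressor of lymphocytes, the peak at chr5:64676238-64676770 had 431, 366 and 326 in Naive and 111, 157, 233 and 224 in Sensitized libraries (-1.04 ± 0.25, adjusted p = 3.36e-04). By Gata3, a T cell transcription factor, a peak within the lncRNA Dreg1 at chr2:9600185-9600801 fell from 449, 411 and 372 to 156, 214, 235 and 261 (-0.92 ± 0.24, adjusted p = 0.00172). In both, Sensitized libraries were below all Naive libraries, and replicates 1 and 2 were the lowest. The closing members near Ctnnb1, beta-catenin, and Tnfaip3, an inhibitor of NF-kappaB, had log2 fold changes of -1.29 ± 0.32 and -1.32 ± 0.35. Near Satb1, a chromatin organizer of T cells, the peak at chr17:52475035-52476293 fell from 1405, 1427 and 1180 to 441, 436, 899.5 and 889 (-1.004 ± 0.27, adjusted p = 0.00228). The call near Klf3 was lost without Sensitized replicate 1 (-0.87), that near Gata3 without the same library (-0.79) or Naive replicate 1 (-0.85), and that near Satb1 without Sensitized replicate 1 or 2 (both -0.85). Without Sensitized replicates 3 and 4 all 5 kept their call at larger changes, -1.49 near Klf3, -1.16 near Gata3, -1.61 near Satb1, -1.89 near Ctnnb1 and -2.02 near Tnfaip3.

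**Figure D2:**
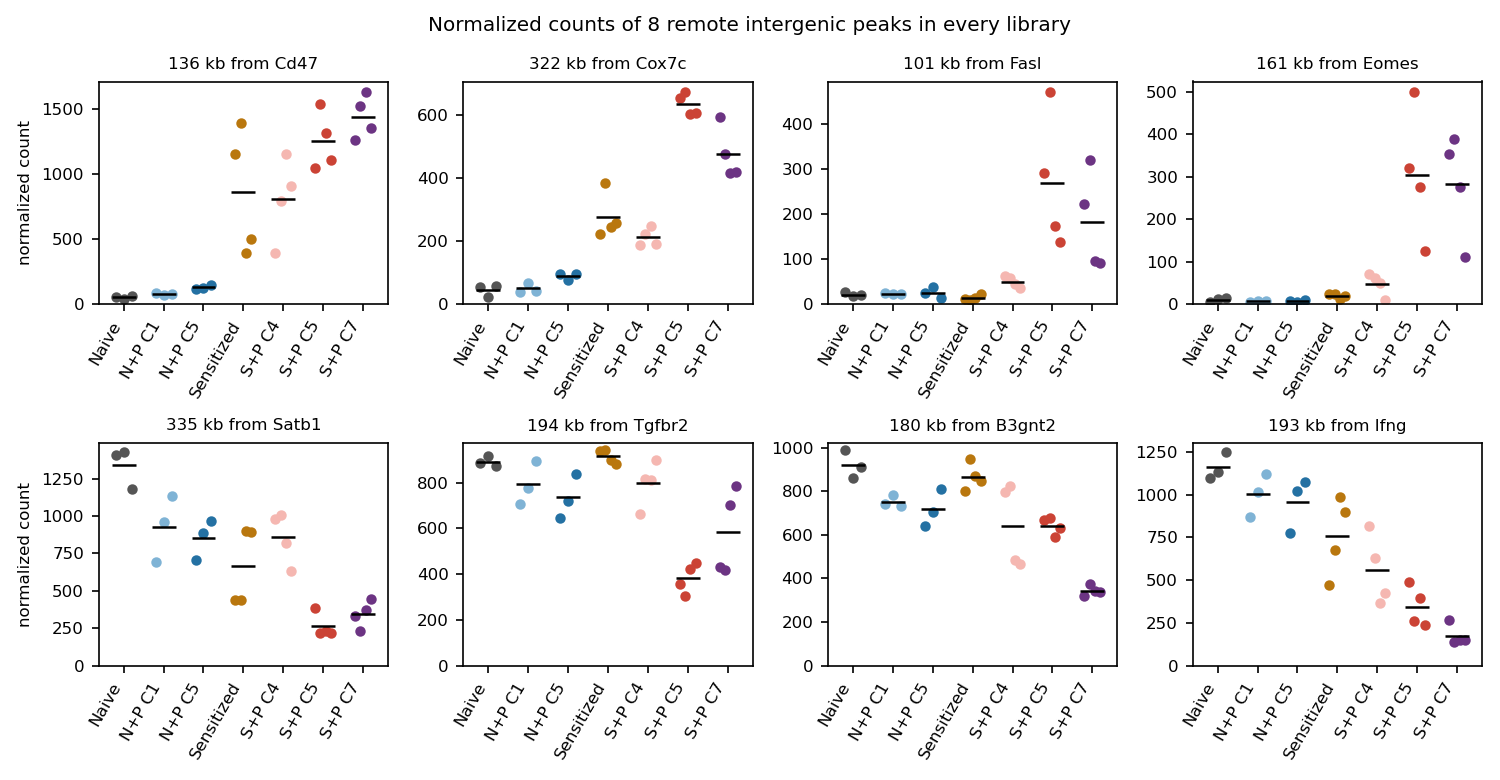
Normalized counts (linear axis from 0) of the 8 members whose sequences are printed, with a point for every library of the 7 groups and a line at each group mean. The Cd47 peak has at most 148 in Naive and N+P libraries and at least 389 in the others, and the Fasl peak has at most 61.2 in the other groups and at least 92.2 in S+P C5 or S+P C7.

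Pregnancy in naive mice was read from N+P C1 and N+P C5, each vs. Naive, and moved hardly any member past the thresholds. In N+P C1 vs. Naive no remote peak was called by DESeq2 (0 of 106 members with an adjusted p, against 0.0% opening and 0.0205% closing of all peaks with an adjusted p), and edgeR also called 0. Of the 476, 72 had an unadjusted p under 0.05 in the DESeq2 test. The share of all peaks under that limit is not given here, so the 72 mark no effect at the members. In N+P C5 vs. Naive 1 member opened and 0 closed, of 71 with an adjusted p (against 0.0262% and 0.0%), and edgeR called 0. The independent filter of DESeq2 left the other members without an adjusted p. The opening member was the Cd47 peak again, at 114, 122 and 148 normalized counts against 55.1, 41.3 and 61.2 in Naive libraries, with no overlap (log2 fold change 1.28 ± 0.37, adjusted p = 0.0456). The same peak had 81.9, 71.8 and 77.2 in N+P C1, where the log2 fold change was 0.55 ± 0.38. Its call in N+P C5 did not hold when any of 5 of the 6 libraries was left out. Without Naive replicate 3, which lay nearest to N+P C1, the counts were 12 opening and 3 closing in N+P C5 against 1 and 4 in N+P C1.

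Pregnancy after sensitization was compared with sensitization alone in the 3 sorted subsets. In S+P C4, the PD1-negative cells, 14 members opened (2.94%, against 0.562% of all peaks) and 3 closed (0.63%, against 0.296%). The median log2 fold change over the members was -0.15, against -0.02 for all peaks. The members with the smallest p had their highest value in S+P C4 replicate 1: the Rn18s-rs5 peak described above (log2 fold change 2.32 ± 0.54, adjusted p = 0.00281) and a peak near Gm8797 at chr3:5925365-5925928, with 3460, 463, 413 and 401 normalized counts against 201, 179.7, 209 and 297 in Sensitized libraries (2.41 ± 0.50, adjusted p = 6.19e-04). Without that library the fold changes were 0.97 and 0.94, and both calls were lost with only the 2 groups in the fit (2.33 and 2.42) or with a replicate block (1.62 and 1.63). Without it 14 members opened and 12 closed. With edgeR 9 opened and 2 closed, and without Sensitized replicates 3 and 4 the counts were 13 and 18, with the Rn18s-rs5 and Gm8797 members at 2.47 and 2.63. Leaving out 1 library gave 25 opening members without Sensitized replicate 1 and 9 without S+P C4 replicate 3, and closing counts from 0 (without Sensitized replicate 2 or S+P C4 replicate 4) to 12 (without S+P C4 replicate 1).

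The Morrbid locus held a member that opened in S+P C4. This peak, at chr2:128218942-128220191 and 213563 bp from Spdye4c, had 183, 87.1, 56.8 and 70.0 normalized counts in Sensitized and 208, 262, 325 and 188 in S+P C4 libraries, without overlap (1.31 ± 0.34, adjusted p = 0.0109). The fold change was 0.86 without Sensitized replicates 3 and 4, and the call was lost. The closing member with the smallest p lay near Cxcr4, a chemokine receptor of bone-marrow homing, at chr1:128709662-128710644. It had 336, 435, 268 and 295 in Sensitized and 252, 162, 134 and 123 in S+P C4 libraries (-1.03 ± 0.24, adjusted p = 0.00363), all S+P C4 values being lower, and the call was lost without Sensitized replicate 2 (-0.88) or S+P C4 replicate 4 (-0.898). It was kept without Sensitized replicates 3 and 4 (-1.24). A peak 101168 bp from Fasl, the death ligand of cytotoxic T cells, at chr1:161514626-161515189, also opened, from 11.0, 8.63, 13.2 and 22.8 in Sensitized to 61.2, 57.1, 45.3 and 34.9 in S+P C4 libraries (1.80 ± 0.46, adjusted p = 0.00819), without overlap, but with loess offsets it was 1.17 and not called. Without Sensitized replicates 3 and 4 it was 2.31 and called.

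In S+P C5, the PD1+CD73+ cells, 45 members opened (9.45%, against 3.08% of all peaks) and 53 closed (11.1%, against 3.67%), with a median log2 fold change of -0.14 over the members and -0.01 over all peaks. With loess offsets the split was 24 and 69. Without Sensitized replicates 3 and 4 it was 33 and 7, so that closing calls fell most. Leaving out 1 library also moved the closing count, to 80 without Sensitized replicate 1, 34 without replicate 3 and 35 without replicate 4.

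The opening with the smallest p was at this Fasl peak. Normalized counts were 11.0, 8.63, 13.2 and 22.8 in Sensitized and 291, 471, 173 and 137 in S+P C5 libraries, and 26.2, 17.7 and 19.6 in Naive libraries. The lowest S+P C5 value was above every library of the groups other than S+P C7, whose values were 223, 320.0, 96.1 and 92.2 and overlapped with S+P C5. The log2 fold change was 4.26 ± 0.44, adjusted p = 5.24e-19, and with loess offsets it was 1.91. A neighbour at chr1:161498081-161499287, the member near Fasl with most counts, had 736 ± 59.2 (SD, n = 4) in Sensitized and 777 ± 111 in S+P C5 (0.08 ± 0.18, adjusted p = 0.769).

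A member 160585 bp from Eomes, a T-box factor of effector and memory CD8+ T cells, at chr9:118146456-118146934 also opened. It had 23.7, 23.5, 12.6 and 20.1 in Sensitized and 319.9, 499, 276 and 124 in S+P C5 libraries (3.93 ± 0.49, adjusted p = 2.44e-13, and 1.49 with loess offsets). Its counts were at most 9.62 in N+P libraries. Members near Fbxo8 at chr8:56896581-56897077 (3.59 ± 0.46, adjusted p = 1.98e-12) and Jarid2, a partner of Polycomb complexes, at chr13:44474364-44475063 (3.71 ± 0.51, adjusted p = 7.84e-11) also opened without overlap, from 20.3 ± 16.4 to 246 ± 39.6 and from 29.1 ± 13.2 to 383 ± 142. Their fold changes were 0.40 and 1.64 with loess offsets, and the Fbxo8 call was lost there. The fifth, near Srek1ip1 at chr13:104746853-104747786, had 96.3, 158, 157 and 158 in Sensitized and 422, 516, 408 and 387 in S+P C5 libraries (1.60 ± 0.22, adjusted p = 1.73e-10). These 5 openings kept their call without Sensitized replicates 3 and 4, at 4.76 near Fasl, 3.69 near Eomes, 4.21 near Fbxo8, 3.52 near Jarid2 and 1.77 near Srek1ip1.

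Among closing members, the smallest p was near Tgfbr2, a receptor chain for TGF-beta, which restrains T cells. The peak at chr9:116197862-116198783 had 939.7, 942, 898 and 881 in Sensitized and 357, 306, 422 and 448 in S+P C5 libraries, a fall in every library (-1.25 ± 0.16, adjusted p = 5.81e-12), and it kept its call without Sensitized replicates 3 and 4 (-1.29). The other 5 members near Tgfbr2 were not called in this comparison. Both closing members near Satb1, at chr17:52472594-52473425 and chr17:52475035-52476293, fell without overlap, the first from 189.8, 222, 464 and 445 to 181, 109, 93.3 and 119 (-1.38 ± 0.26, adjusted p = 3.26e-06) and the second likewise (log2 fold change -1.33 ± 0.25, adjusted p = 5.48e-06). Without Sensitized replicates 3 and 4 they were -0.68 and -0.72 and were not called. Members near Klf3 at chr5:64838397-64838898 (-1.08 ± 0.19, adjusted p = 8.00e-07) and near Cxadr, an adhesion molecule, at chr16:77994903-77996623 (-1.05 ± 0.19, adjusted p = 1.85e-06) fell as well, and the latter was -0.89 and not called without replicates 3 and 4, where the former was -1.10 and called.

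In S+P C7, the PD1+CD73- cells, closing members outnumbered opening members: 44 opened (9.24%, against 3.84% of all peaks) and 105 closed (22.1%, against 8.03%). The members' median log2 fold change was -0.22, against 0.00 for all peaks. Loess offsets gave 25 and 114, and leaving out Sensitized replicates 3 and 4 gave 36 and 56. Near B3gnt2, a glycosyltransferase, the peak at chr11:22642489-22643777 had 802, 948, 873 and 846 in Sensitized and 321, 376, 341 and 338 in S+P C7 libraries, all lower (-1.34 ± 0.14, adjusted p = 7.32e-18). A peak 192700 bp from Ifng, the gene of interferon-gamma, at chr10:118469223-118470080 fell from 474, 674, 984 and 900.3 to 265, 136, 149 and 151 (-2.10 ± 0.27, adjusted p = 4.20e-13). Over all groups this Ifng member was highest in Naive libraries, at 1160 ± 77.6 (SD, n = 3), with 957 ± 157 in N+P C5 against 346 ± 119 in S+P C5. The member near Klf5, a zinc-finger factor, at chr14:99686537-99687843 fell from 567 ± 241 to 87.9 ± 35.6 (-2.68 ± 0.30, adjusted p = 3.50e-16). Members near Cog6 (-1.33 ± 0.15) and Ccdc196 (-2.03 ± 0.27) fell likewise. These 5 closings, with Sensitized replicates 3 and 4 left out, kept their call, at -1.35 near B3gnt2, -1.70 near Ifng, -2.02 near Klf5, -1.23 near Cog6 and -1.91 near Ccdc196.

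The Fasl and Eomes members opened here as they did in S+P C5, with log2 fold changes of 3.70 ± 0.44, adjusted p = 1.21e-14 and 3.82 ± 0.49, adjusted p = 5.91e-13, which loess offsets lowered to 1.37 and 1.39. The Morrbid member at chr2:128218942-128220191 reached 384, 632, 535 and 342 (2.25 ± 0.34, adjusted p = 1.34e-09). Members near Adgrl2, an adhesion G protein-coupled receptor, at chr3:149044310-149045356 (2.96 ± 0.41, adjusted p = 6.56e-11) and near Jarid2 at chr13:44660409-44660949 (1.61 ± 0.25, adjusted p = 4.67e-09) opened too, and the latter rose from 90.8 ± 17.7 to 278 ± 70.0. The openings in the fit that left out Sensitized replicates 3 and 4 were 4.21 near Fasl, 3.58 near Eomes, 1.80 at the Morrbid member, 2.35 near Adgrl2 and 1.44 near Jarid2, all called. The comparisons of S+P C4, C5 and C7 share the same 4 Sensitized libraries, so their calls are not independent.

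Prior sensitization in cells of the same gate was read from S+P C5 vs. N+P C5, the comparison with most calls: 105 members opened (22.1%, against 10.3% of all peaks) and 106 closed (22.3%, against 6.97%). Median log2 fold changes were -0.17 over the members and 0.00 over all peaks. Peaks in gene bodies were called in 23.2% opening and 14.2% closing, and promoter peaks in 1.69% and 1.67%. Loess offsets gave 70 and 118. This comparison and Sensitized vs. Naive have no library in common. Of the 74 members that opened in Sensitized mice, 67 opened here too (90.5% of the 74 and 63.8% of the 105), and of the 23 that closed 21 did (91.3% of the 23 and 19.8% of the 106). Over all peaks the corresponding shares were 91.5% and 64.3% for opening and 82.0% and 16.4% for closing.

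Near Maf, a transcription factor of IL-10 and exhaustion programs, the member at chr8:116196955-116197637 had the highest fold change among the 5 opening members with the smallest p. It had 8.05, 5.48 and 10.8 normalized counts in N+P C5 against 320.2, 399, 283 and 222 in S+P C5 libraries (5.23 ± 0.53, adjusted p = 4.73e-20), and 106 ± 70.5 (SD, n = 4) in Sensitized libraries. With loess offsets the log2 fold change was 1.69. The Cox7c member rose from 96.6, 75.4 and 95.0 to 654, 675, 605 and 608 (2.83 ± 0.24, adjusted p = 9.82e-30), without overlap. The Cd47 member (3.29 ± 0.33, adjusted p = 1.21e-20), the Tm2d1 member (3.04 ± 0.31, adjusted p = 1.47e-20) and a member near Xxylt1, a xylosyltransferase, at chr16:30766885-30767672 (2.38 ± 0.23, adjusted p = 8.83e-23) rose likewise.

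Closing members included the gene-poor surroundings of the microRNA host Mir181a-1hg, which carries miR-181a and miR-181b, regulators of T cell receptor sensitivity. Its 2 members, whose nearest protein-coding gene is Ptprc (CD45), both closed. At chr1:137826033-137826993 there were 433, 504 and 504 normalized counts in N+P C5 against 149, 106, 93.3 and 80.6 in S+P C5 libraries, with no overlap (-2.16 ± 0.32, adjusted p = 6.18e-10). The other, at chr1:137828447-137828943, closed likewise (log2 fold change -2.34 ± 0.38, adjusted p = 1.42e-08). The Satb1 member at chr17:52472594-52473425 fell from 432, 440.0 and 541 to 181, 109, 93.3 and 119 (-1.89 ± 0.28, adjusted p = 1.56e-10). Members near Speer2 (-3.14 ± 0.48, -5.35 with loess offsets), Hmga2 (-1.05 ± 0.17) and L3mbtl3, a chromatin reader (-1.91 ± 0.30), also fell without overlap.

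**Figure D3:**
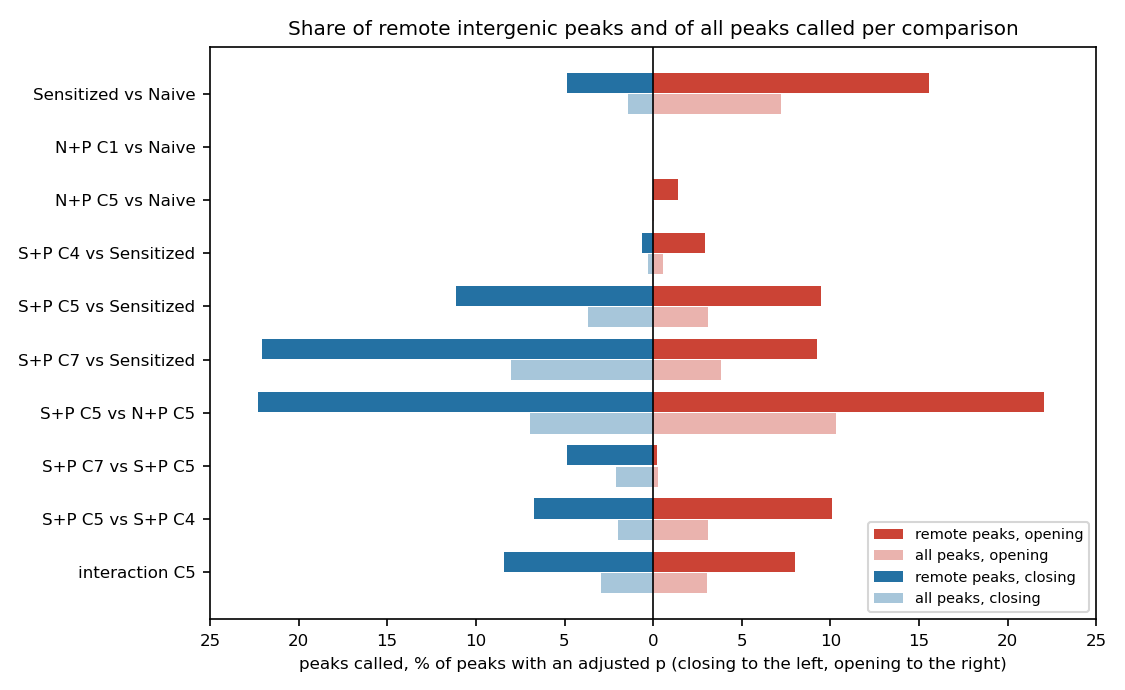
Percent of peaks called opening (right) and closing (left) in each comparison, for remote peaks and for all peaks. Remote peaks lie above all peaks in both directions in each comparison that includes sensitized animals, apart from opening in S+P C7 vs. S+P C5 (0.21% against 0.266%). Under S+P C5 vs. N+P C5 opening took 22.1% of remote peaks and 10.3% of all peaks.

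Promoter peaks, which were seldom called, weigh on the share over all peaks. Peaks in gene bodies were nearer to the members. They opened in 7.78% and closed in 8.24% for S+P C5 vs. Sensitized (members 9.45% and 11.1%), in 9.21% and 16.6% for S+P C7 vs. Sensitized (members 9.24% and 22.1%), and in 7.495% and 4.59% for S+P C5 vs. S+P C4 (members 10.1% and 6.72%). Between the PD1+CD73- and PD1+CD73+ subsets closing took 4.68% of them and 4.83% of the members. No test was made of these differences between classes.

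Within sensitized pregnant mice the subsets were compared with each other. S+P C7 vs. S+P C5, which differ in the CD73 gate, had 1 opening member (0.21%, against 0.266% of all peaks) and 23 closing members (4.83%, against 2.11%), and with the animals as a block, since the same mice gave both subsets, the counts were 1 and 39. The Cxcr4 member at chr1:128709662-128710644 closed from 425, 580.1, 544 and 369 to 179, 247, 166 and 97.3 (-1.49 ± 0.24, adjusted p = 5.51e-07). Near Klf3 the peak at chr5:64819350-64820249 had 360.0, 491, 345 and 402 in S+P C5 against 185, 237, 215 and 143 in S+P C7 libraries (-1.05 ± 0.17, adjusted p = 4.21e-07), and no S+P C7 value reached the S+P C5 values. Members near Acvr2a, an activin receptor (-1.44 ± 0.29), Klf5 (-1.504 ± 0.31) and B3gnt2 (-0.91 ± 0.15) also fell, and the B3gnt2 call was lost without any 1 of S+P C5 replicates 1 and 2 and S+P C7 replicates 1 and 4 (-0.87 to -0.898). The opening member, near Med13l, a Mediator subunit, at chr5:118542376-118542887 (1.23 ± 0.46, adjusted p = 0.0925), lost its call without 6 of the 8 libraries in turn, and with edgeR. Without S+P C7 replicate 1 there were 4 opening and 58 closing members, and without S+P C5 replicate 1 or S+P C7 replicate 4 there were 0 and 13.

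S+P C5 vs. S+P C4, which differ in PD1 and CD73, had 48 opening (10.1%, against 3.12% of all peaks) and 32 closing members (6.72%, against 2.0%), and 23 and 47 with loess offsets. A member near Rplp1, a ribosomal stalk protein, at chr9:61627167-61627881 had 78.3, 27.3, 35.4 and 15.8 normalized counts in S+P C4 against 262, 370.4, 321 and 241 in S+P C5 libraries, without overlap (3.07 ± 0.39, adjusted p = 1.93e-12). Another near Ptger2, the EP2 receptor for prostaglandin E2, at chr14:45339356-45340066 rose from 27.2, 36.3, 62.2 and 30.4 to 357, 421, 229 and 289.6 (3.04 ± 0.41, adjusted p = 4.31e-11). With loess offsets these were 1.91 and 1.5001. On the X chromosome, a member near the kinase gene Rps6ka3 at chrX:157804403-157804973 rose (1.86 ± 0.25, adjusted p = 7.55e-11). The Satb1, Tgfbr2 and Mir181a-1hg members closed here too, with log2 fold changes of -1.70 ± 0.25, -1.06 ± 0.17 and -1.23 ± 0.30, and a member near Dpy19l1 fell by 1.29 on the log2 scale. The Mir181a-1hg call was lost without S+P C4 replicate 1 (-0.86). Of the 32 closing members, 7 lay over 500000 bp from a TSS, among them the 4 of the Lrrc4c cluster that were high in S+P C4 replicate 1. Without that library 44 members opened and 12 closed. Leaving out replicate 1 of S+P C5 gave 49 closing members, and leaving out its replicate 2 gave 20.

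Whether pregnancy moved the PD1+CD73+ cells of sensitized and naive mice unequally was tested by the interaction, S+P C5 vs. Sensitized minus N+P C5 vs. Naive. It called 78 members: 38 with a higher change in sensitized mice (7.98%, against 3.04% of all peaks) and 40 with a lower change (8.40%, against 2.93%). Loess offsets gave 19 and 70, and leaving out Sensitized replicates 3 and 4 gave 17 and 14. The Fasl member had an interaction of 4.00 ± 0.70, adjusted p = 1.66e-05, from a log2 fold change of 4.26 in sensitized mice and of 0.26 in naive mice. In the alternative fits that did not leave out both Sensitized replicates 3 and 4, the Fasl interaction ran from 2.16 to 4.37 and stayed called. The ranges were 2.64 to 4.67 near Eomes and 1.69 to 3.17 near Rplp1. In the main fit the interaction was 4.40 ± 0.84, adjusted p = 1.06e-04 for the Eomes member, 2.91 ± 0.57, adjusted p = 1.77e-04 for the Rplp1 member and 1.31 ± 0.32, adjusted p = 0.00318 for the Xxylt1 member. A member near Nab1, a repressor of EGR factors, had 1.82 ± 0.44, adjusted p = 0.00281, but 0.91 and no call with loess offsets. Negative values were found at a cluster of 3 members near Cxadr (-1.36 ± 0.29, -1.46 ± 0.32 and -1.20 ± 0.31), near Rapgef2 (-1.49 ± 0.32, adjusted p = 7.17e-04) and at the Tgfbr2 member (-0.97 ± 0.25, adjusted p = 0.00443), whose call was lost without N+P C5 replicate 3 (-0.87) or S+P C5 replicate 2 (-0.89). Without Sensitized replicates 3 and 4 the named members kept their call, from 1.04 near Xxylt1 to 4.51 near Fasl and from -1.01 near Tgfbr2 to -1.53 near Rapgef2. The count was sensitive to single libraries, with 20 and 17 calls without Naive replicate 2, 57 and 84 without Sensitized replicate 1 and 26 and 17 without Sensitized replicate 4.

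A list of 128 genes of T cell biology was used to place the members by the roles of their neighbours. For 32 of these genes at least 1 member had that gene as its nearest, and the members so placed numbered 90. In Sensitized vs. Naive 18 of the 90 opened (against 15.5% of all members and 7.22% of all peaks). In the same comparison 6 closed (6.67%, against 4.83% and 1.4%). In S+P C5 vs. Sensitized 7 opened (7.78%, against 9.45% and 3.08%) and 8 closed (8.89%, against 11.1% and 3.67%). S+P C7 vs. Sensitized had 7 that opened (7.78%, against 9.24% and 3.84%) and 19 that closed (21.1%, against 22.1% and 8.03%). Under S+P C5 vs. N+P C5 28 opened (31.1%, against 22.1% and 10.3%) and 15 closed (16.7%, against 22.3% and 6.97%). For S+P C5 vs. S+P C4 11 opened (12.2%, against 10.1% and 3.12%) and 6 closed (6.67%, against 6.72% and 2.0%). Their median log2 fold change under S+P C5 vs. N+P C5 was -0.08, against -0.17 over all members and 0.00 over all peaks. The list was drawn up with results of these data known, and nearness is not control.

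Transcription regulators were the largest role, with 49 members near 17 of 48 genes. Under S+P C5 vs. N+P C5, 14 of them opened (28.6%) and 7 closed (14.3%), against 22.1% and 22.3% of all members and 10.3% and 6.97% of all peaks. In Sensitized vs. Naive 8 opened (16.3%) and 3 closed (6.12%), near the 15.5% and 4.83% of all members (7.22% and 1.4% of all peaks). All 3 members near Eomes opened under S+P C5 vs. N+P C5, with log2 fold changes of 5.37 ± 0.61, 2.00 ± 0.27 and 2.265 ± 0.35. Near Id2, an inhibitor of E proteins that supports effector cells, both members opened (2.29 ± 0.33 and 1.48 ± 0.28). Near Maf only the peak described above was called, and the member with most counts there did not pass (-0.17 ± 0.17, adjusted p = 0.395). The member near Bach2, a repressor that keeps memory cells quiescent, rose from 465 ± 38.7 to 1219 ± 123 (1.39 ± 0.19, adjusted p = 3.11e-11), and that near Bhlhe40 from 665 ± 80.9 to 1477 ± 233 (1.15 ± 0.22, adjusted p = 1.52e-06). Of 5 members near Bcl11b, a factor of T cell identity, 3 opened and 1 closed, and the one with most counts opened (1.73 ± 0.26, adjusted p = 7.52e-10). The members with most counts near Lef1, Jun, Gata3, Foxo1, Bcl6, Myc and Nfatc2 were not called, and their log2 fold changes lay between -0.66 (Lef1) and 0.35 (Nfatc2). Other members near 3 of these genes were called: 2 of 4 near Myc opened (1.05 ± 0.25 and 1.37 ± 0.22), 1 of 2 near Lef1 closed (-0.96 ± 0.28) and 1 of 2 near Bcl6 closed (-1.11 ± 0.20).

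Closing members near regulators included the member by Tox, a factor of exhausted cells, at chr4:7454657-7455710. It had 546, 541 and 598 in N+P C5 against 257, 116, 145 and 165 in S+P C5 libraries (-1.71 ± 0.40, adjusted p = 1.00e-04). The member with most counts near Zfp36l2, a gene of mRNA decay, at chr17:84339785-84340420, closed as well (-1.19 ± 0.46, adjusted p = 0.0200). Of 4 members near Satb1, 2 closed and 2 did not. The one with most counts, at chr17:52468691-52470994, had 1724 ± 232 in N+P C5 against 1977 ± 268 in S+P C5 (0.20 ± 0.16, adjusted p = 0.290). Near Ets1 there were 8 members, of which 1 was called, and the one with most counts, at chr9:32837000-32838528, had 1368 ± 71.8 against 1231 ± 75.4 (-0.15 ± 0.11, adjusted p = 0.240).

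Receptors and adhesion molecules, with 21 members near 6 of 47 genes, had 8 opening (38.1%, against 15.5% of all members and 7.22% of all peaks) and 0 closing members in Sensitized vs. Naive. They had 11 opening (52.4%, against 22.1% and 10.3%) and 1 closing (4.76%, against 22.3% and 6.97%) under S+P C5 vs. N+P C5, and the members of a gene are not independent. Against Sensitized they had 0 opening and 1 closing (4.76%, against 0.63% of all members and 0.296% of all peaks) in S+P C4. In the PD1+CD73+ subset 2 opened (9.52%, against 9.45% and 3.08%) and 1 closed (4.76%, against 11.1% and 3.67%), and in the PD1+CD73- subset 2 opened (9.52%, against 9.24% and 3.84%) and 2 closed (9.52%, against 22.1% and 8.03%). All 5 members near Cxcr4 opened under S+P C5 vs. N+P C5. One of them, at chr1:128736206-128736692, rose from 23.1, 24.7 and 39.7 to 229, 401, 297 and 218 (3.29 ± 0.49, adjusted p = 5.09e-10), and the one with most counts, at chr1:128694349-128695462, from 533 ± 9.79 to 1012 ± 142 (0.92 ± 0.18, adjusted p = 1.98e-06). Near the integrin genes Itga4 and Itgb1 the members at chr2:78895678-78896026 and chr8:129275766-129277064 had log2 fold changes of 3.60 ± 0.50, adjusted p = 1.44e-11 and 3.38 ± 0.50, adjusted p = 2.50e-10. The closing member among receptors was the Tgfbr2 peak (-0.94 ± 0.18, adjusted p = 1.43e-06).

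Effector genes had only 4 members, near Fasl and Ifng. Of these 2 opened and 1 closed under S+P C5 vs. N+P C5, where 22.1% and 22.3% of all members and 10.3% and 6.97% of all peaks did: the Fasl members at chr1:161502032-161502547 (2.94 ± 0.47, adjusted p = 6.81e-09) and chr1:161514626-161515189 (3.42 ± 0.48, adjusted p = 4.01e-11) opened, and the Ifng member closed (-1.46 ± 0.28, adjusted p = 2.26e-06). Genes of survival and signaling had 16 members near 7 of 20 genes. Under S+P C5 vs. N+P C5 1 opened (6.25%, against 22.1% of all members and 10.3% of all peaks) and 6 closed (37.5%, against 22.3% and 6.97%). In Sensitized vs. Naive 1 opened (6.25%, against 15.5% and 7.22%) and 3 closed (18.8%, against 4.83% and 1.4%). For S+P C7 vs. Sensitized 0 opened and 7 closed (43.8%, against 22.1% of all members and 8.03% of all peaks). Under S+P C5 vs. N+P C5 the member near Sox4, at chr13:28735429-28736102, closed (-1.67 ± 0.46, adjusted p = 0.00108), as did, in the same comparison, the Ptprc members in Mir181a-1hg and 2 of 5 members near Cblb, a ubiquitin ligase that sets the threshold of activation. The Cblb member with most counts, at chr16:51510533-51512214, had 907, 1387, 1639 and 1675 in Sensitized and 898, 955, 639.6 and 423 in S+P C7 libraries (-0.95 ± 0.28, adjusted p = 0.00360). The members with most counts near Bcl2, Prkcq, Dusp4 and Dusp6 were not called under S+P C5 vs. N+P C5, and their log2 fold changes lay between -0.73 (Prkcq) and 0.12 (Dusp6). Of the other members, 1 near Dusp4 opened (1.64 ± 0.37) and 1 near Dusp6 closed (-1.51 ± 0.27).

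Members clustered along the chromosomes. Joining members less than 50000 bp apart gave 283 stretches, of which 194 held a single member, and 25 held at least 4, with 135 members in all. Counts summed over a stretch describe each, and no test was made on the sums. The Cd47 stretch at chr16:49755903-49791648 (4 members) had the highest ratio between group means: 299.9 ± 39.1 (SD, n = 3) in Naive, 477 ± 58.8 in N+P C5, 2368 ± 1273 (SD, n = 4) in Sensitized and 3630 ± 440.2 in S+P C7. The stretch beside Eomes at chr9:118114496-118204379 (4 members) had 393 ± 14.7 in Naive, 797 ± 345 in Sensitized and 1527 ± 393 in S+P C5. The Cxcr4 stretch (5 members) had 1477 ± 49.4 in N+P C5 against 3323 ± 702 in S+P C5.

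Other stretches had lower mean sums than in Naive libraries. Between Tnfaip3 and Olig3, chr10:18992567-19065040 (6 members), the sum was 7332 ± 906 in Naive, 5201 ± 689.7 in Sensitized and 4337 ± 523 in S+P C7 libraries. Naive mice after pregnancy had 5896 ± 1069 (N+P C1) and 5891 ± 936 (N+P C5). The N+P libraries overlapped with both Naive and Sensitized libraries. Under S+P C5 vs. N+P C5 3 members of this stretch closed, where 22.3% of all members and 6.97% of all peaks did. The Cblb stretch (4 members) had 4260 ± 232 in Naive and 1933 ± 490.2 in S+P C7, with N+P C5 at 4169 ± 475, and the stretch by Zfp36l2 had 1799 ± 22.3 and 857 ± 188, with N+P C5 at 1602 ± 152. A stretch could also hold members that moved apart. Near Tbc1d1 and Klf3, chr5:64629176-64676770 (8 members), 1 opened and 3 closed under S+P C5 vs. N+P C5, against 22.1% and 22.3% of all members and 10.3% and 6.97% of all peaks.

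Stretches without a call were those of Ets1 (7 members) and of Firre on the X chromosome (11 members, with Crsfirre). The 10 members in Firre summed to 3323, 2994 and 5075 in Naive, 5251, 5316 and 5468 in N+P C5, 2693, 4923, 5323 and 5538 in Sensitized and 3813, 4151, 5123 and 5922 in S+P C5 libraries. Naive replicates 1 and 2 and Sensitized replicate 1 were low. All N+P C5 libraries lay above the Naive libraries, and the Sensitized and S+P C5 libraries overlapped with both. In Morrbid, 6 of the 8 members were called in some comparison, as were 52.7% of all members. Under S+P C5 vs. N+P C5 5 opened, where 22.1% of all members and 10.3% of all peaks did. A positive interaction was called at 5, against 7.98% of all members and 3.04% of all peaks. The sums of the 8 Morrbid members were 1076, 1231 and 1211 in N+P C5, 1524, 1567 and 1427 in Naive, 2496, 1991, 1401 and 1336 in Sensitized and 2308, 3188, 3115 and 2167 in S+P C5 libraries. The S+P C5 and N+P C5 libraries did not overlap, and Sensitized replicate 1 was above S+P C5 replicates 1 and 4. In Mir181a-1hg the sums of the 2 members were 756, 796 and 808 in Naive and 185, 93.6, 152 and 104 in S+P C7 libraries. Lncpint, with 7 members, had 2 that opened in Sensitized vs. Naive (15.5% of all members and 7.22% of all peaks did), and its sums lay between 4538 and 6104 over the 25 libraries.

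**Figure D4:**
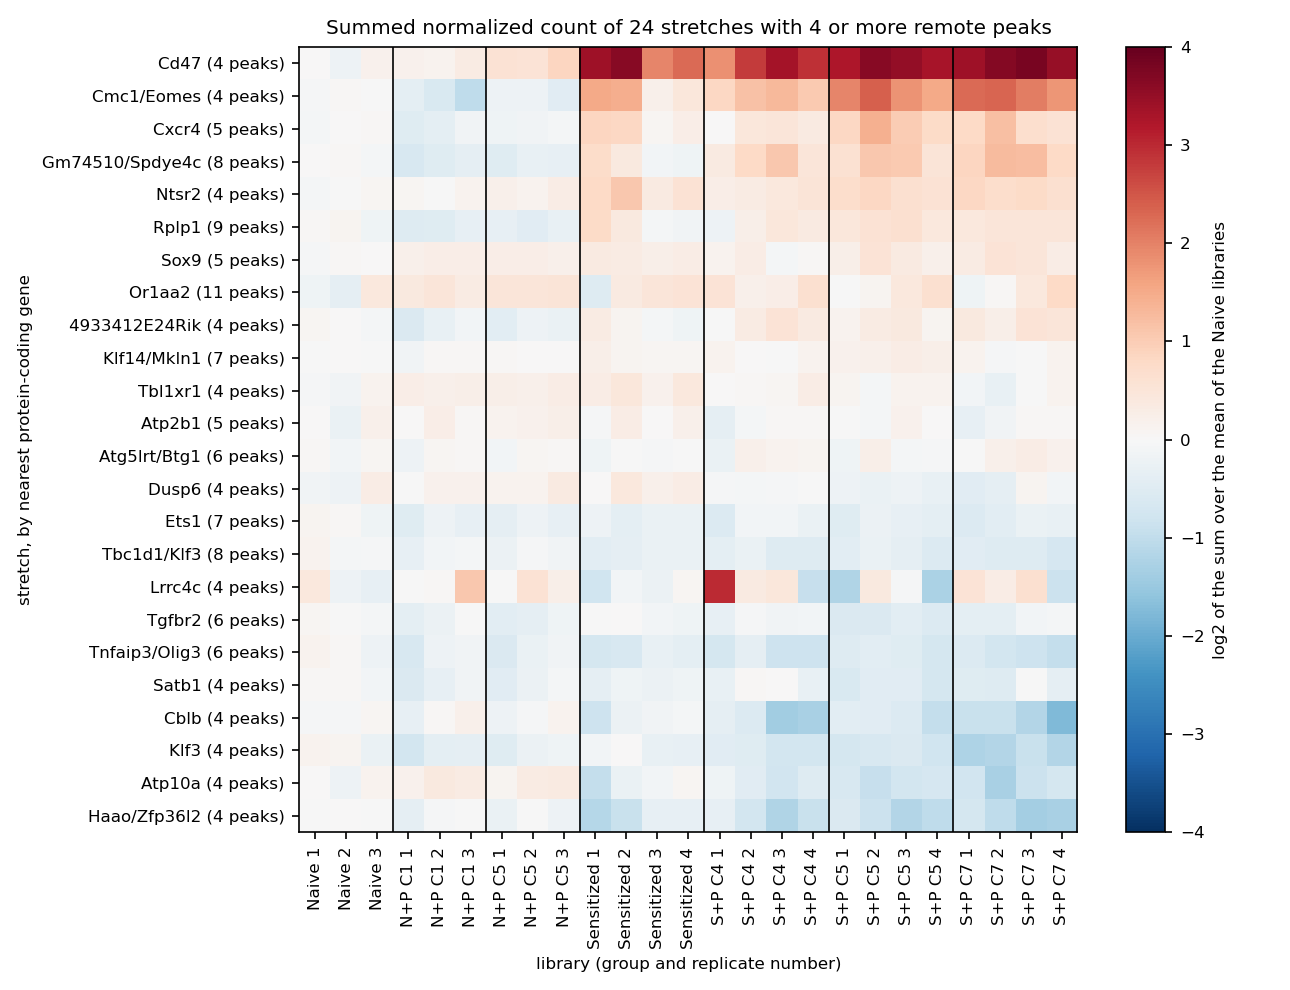
Summed normalized counts of the members in 24 of the 25 stretches with at least 4 remote peaks, in each library (columns) as the log2 ratio to the mean of the Naive libraries (colour scale from -4 to 4). The Cd47 and Eomes stretches have higher group means than Naive in all 4 groups of sensitized animals, and the Tnfaip3/Olig3, Cblb and Haao/Zfp36l2 stretches lower ones.

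Motif matches were finally counted among the members by their calls, as a description. In Sensitized vs. Naive, AP-1 was found in 24 of 74 opening members (32.4%), 0 of 23 closing and 70 of 379 uncalled members (18.5%). Under S+P C5 vs. N+P C5 it was found in 32 of 105 opening (30.5%), 11 of 106 closing (10.4%) and 51 of 265 uncalled members (19.2%). In S+P C5 vs. S+P C4 it was found in 16 of 48 opening members and 0 of 32 closing members. Shares among opening and closing members were 31.1% and 11.3% for S+P C5 vs. Sensitized, 27.3% and 15.2% for S+P C7 vs. Sensitized and for the interaction 12 of 38 and 4 of 40 members held it. In S+P C7 vs. S+P C5 the match was found in the 1 opening member and in 6 of 23 closing members (26.1%, against 19.2% of the uncalled), and for S+P C4 vs. Sensitized in 1 of 14 opening (7.14%, against 20.04% of the uncalled) and 1 of 3 closing members. Among the opening members of Sensitized vs. Naive, RUNX was found in 16 (21.6%) and ETS in 14 (18.9%), against 24.5% and 30.6% of the uncalled members. These groups are small, and a match is not a bound site.

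**Figure D5:**
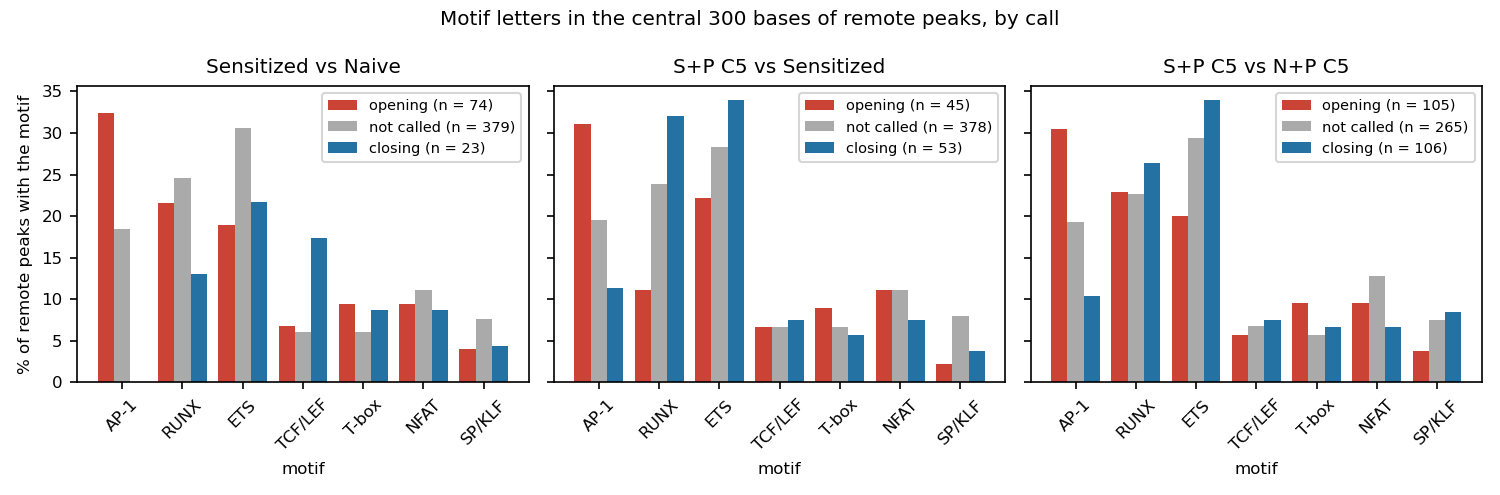
Percent of remote peaks with a match to each motif in its central 300 bases among opening, closing and uncalled members, with a panel for each of 3 comparisons. AP-1 is found in more opening members than any other motif shown, 32.4% in Sensitized vs. Naive and 30.5% under S+P C5 vs. N+P C5, with 0% and 10.4% among closing members.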

How the data were processed

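ATAC-seq reads were made into peaks by the authors: trimming with Cutadapt 3.4, alignment to GRCm39 with Bowtie2 2.2.9, removal of non-unique reads and of PCR duplicates (Picard 2.21.8), calling per library with Genrich 0.6.1 in its ATAC mode, and merging of the peaks that ChIP-R found reproducible in a group (bedtools 2.27.1). Genrich centres on transposase cut sites. The deposited table holds raw read counts, not normalized, for 13527 merged peaks in 25 libraries. The 7 deposited group lists carry ChIP-R scores, and only their positions were used here, to count the lists that hold a peak. A merged peak is as wide as the union over groups, so counts cover its whole width.

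Here, peaks were placed against GENCODE vM39 by their midpoints, with 1-based coordinates. Counts of all peaks were fitted in 1 DESeq2 1.42.0 model (R 4.3.3, a term for group only, size factors by median of ratios, Wald test, independent filter at 0.1, Benjamini-Hochberg adjustment). Normalized counts are counts over size factors, and r is over log2(normalized count + 1). The fits were tested on simulated counts. The alternatives were edgeR 4.0.16, loess offsets (limma 3.58.1), total counts, a mean count of at least 50, no independent filter, an adjusted p of 0.05, fits of the compared groups alone, each library left out, replicate numbers as a block, and whole peaks instead of midpoints. Leaving out Sensitized replicates 3 and 4 together was chosen after seeing the data.

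Members, gene list, motifs and comparisons were chosen with earlier results of these data known. For each comparison the named peaks are up to 5 opening and 5 closing calls with the smallest adjusted p whose libraries do not overlap between the groups. For each gene of the list the member with most counts is named, as are the 3 members with most counts and the 3 farthest from a TSS. Other members near these genes were picked after their values were seen. One stretch of peaks and one shared word are not reported here.

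Replicate numbers pair subsets of the same mice. Between groups of different mice a shared number is only a number. Deviations of same-numbered libraries from their group means correlated at 0.108 to 0.400 between N+P C1 and N+P C5, 0.103 to 0.572 between S+P C4 and S+P C5, 0.0639 to 0.666 for S+P C4 with S+P C7, and 0.522 to 0.771 between S+P C5 and S+P C7.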

Additional observations from a re-analysis of the deposited data

Results flagged for a closer look

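Of 102 sets of libraries examined for a library far from the others of its group, 7 had one, and chance gives about 1 in 20. S+P C4 replicate 1 was that library in 3 of them. It had 3460 normalized counts at the member near Gm8797, where the other S+P C4 libraries had 401 to 463, and 104737 at the Rn18s-rs5 member near Esp38, where they had 13561 to 15652. It also had 4.22% of its counts in remote peaks, against 2.57% to 2.81%. Sensitized replicate 1 had 96.3 at the member near Srek1ip1, against 157 to 158 in the others. S+P C5 replicate 1, the deepest library, had 385 at the Satb1 member chr17:52475035-52476293 (others 214 to 233) and 358 at the Klf5 member (204 to 222). S+P C7 replicate 1 had 265 at the Ifng member (136 to 151).

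The change of PD1+CD73+ cells with pregnancy differed between sensitized and naive mice, by the interaction term of DESeq2, at 78 members. Among the named members the interaction, as log2 fold change in sensitized minus that in naive mice, was 4.00 near Fasl, 4.40 near Eomes, 2.91 near Rplp1, 1.82 near Nab1 and 1.31 near Xxylt1. It was -1.36, -1.46 and -1.20 at the 3 members near Cxadr, -1.49 near Rapgef2 and -0.97 near Tgfbr2. The alternative fits brought the value near Fasl down to 2.16 and that near Nab1 to 0.91. The labels of the Naive and Sensitized libraries name no gate on PD1 or CD73, so pregnancy and the gate cannot be told apart in these effects.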

How the results depend on the processing

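Counts of called members for the interaction, Sensitized vs. Naive and the comparisons of S+P C5 with N+P C5, with S+P C4 and with Sensitized, and of S+P C7 with Sensitized, stayed within 1.5 times their main value under every alternative that kept all libraries, but their split into opening and closing moved. Loess offsets moved it toward closing, and the replicate block gave 72 and 55 in place of 74 and 23 for Sensitized vs. Naive and 51 and 42 in place of 45 and 53 for S+P C5 vs. Sensitized. Leaving out Sensitized replicates 3 and 4 together gave 173 calls for Sensitized vs. Naive, 31 for the interaction, and, against Sensitized, S+P C7 had 92, S+P C5 40 and S+P C4 31. N+P C1 vs. Naive had 5 calls with the filter off, 4 with total counts, 5 with the 2 groups alone and 4 with a replicate block. N+P C5 vs. Naive had 2, 2, 5 and 4 calls, and 0 with edgeR. S+P C4 vs. Sensitized had 5 with the 2 groups alone, 7 with the block and 11 with edgeR. With the block, S+P C7 vs. S+P C5 had 40 calls, and the other 6 counts stayed within 1.5 times. Leaving out a library in turn gave 70 to 129 calls for Sensitized vs. Naive, 0 to 5 for N+P C1, 0 to 15 for N+P C5 and 37 to 141 for the interaction. Against Sensitized S+P C7 had 132 to 185, S+P C5 69 to 136 and S+P C4 12 to 30. S+P C5 had 202 to 224 against N+P C5 and 56 to 97 against S+P C4, and S+P C7 had 13 to 62 against S+P C5. The cause of these shifts was not tested. Of 72 named tests, 58 kept their call under the alternatives other than leaving out Sensitized replicates 3 and 4 together, 14 lost it under at least 1 and 0 reversed. Leaving out both libraries lost 4 of the 45 that use Sensitized libraries, so that 54 of the 72 kept their call throughout. The median member had 99 counts in S+P C4 replicate 1, the lowest median of any library. Members with under 10 counts numbered 2 in that library and 24 in N+P C1 replicate 3, which had the most.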
